A study of Mus musculus with 6 samples.

Results

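The 10 macrophage genes described here are Adgre1, Cd68, C1qa, C1qb, C1qc, Csf1r, Itgam, Lyz2, Cd163 and Mrc1, a set of genes by which macrophages are commonly recognised in mouse tissue. They were taken by gene name from a table of 54532 genes measured by RNA-seq of whole kidneys. All 10 passed the filter on low counts and entered the test with 15816 genes in total. The kidneys came from 3 WT and 3 Trpm2-/- mice of the C57BL/6J strain. Every mouse had received a single intraperitoneal injection of 18 mg/kg cisplatin, a platinum drug that injures renal tubules, and was killed at 72 h. The labels give an age of 6 to 8 weeks for all 6 mice, the study's methods give an older range, and the methods state that the cisplatin-treated mice were male. The Trpm2-/- mice carry a germline deletion of exons that encode transmembrane domains of TRPM2, a calcium-permeable cation channel, so the channel is missing from macrophages as well as from tubules. No kidney without cisplatin was analysed here. Each library was 1 mouse, so p-values measure the spread between mice, and the replicate numbers of the Trpm2-/- mice are 1, 2 and 4.

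Macrophages are phagocytes that reside in every organ, including the interstitium of the kidney, and are replenished or joined by monocytes from blood during injury. They clear dead cells and debris, and their survival depends on the receptor Csf1r, which binds the growth factors Csf1 and Il34. The complement protein C1q, which binds apoptotic cells and immune complexes, is assembled from the A, B and C chains encoded by C1qa, C1qb and C1qc, and in many tissues macrophages are its main source. Adgre1 encodes F4/80, Itgam encodes the alpha chain of the integrin CD11b/CD18, Cd68 encodes a lysosomal glycoprotein and Lyz2 a bacteriolytic enzyme. Cd163 and Mrc1 encode endocytic receptors for haemoglobin bound to haptoglobin and for mannosylated glycoproteins.

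The 6 libraries held 14053307 to 17150089 counts assigned to genes. Levels in CPM, which are counts scaled to a common library size, are on library sizes scaled by the TMM method, and FPKM values, which are per length, are those deposited by the authors. The value of 3 counts, taken as the detection floor, was 0.184 to 0.205 CPM per library and covers counting error only. Counts from mitochondrial genome genes made up 4.43 to 4.72% of WT libraries and 7.91 to 11.04% of Trpm2-/- libraries. Trpm2 itself had 5, 5 and 27 counts in WT and 10, 16 and 20 counts in Trpm2-/- kidneys, which overlapped. These counts cover the whole gene, most of which the deletion leaves in place, so they do not check the labels.

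Among the 10 macrophage genes, 2 fell in Trpm2-/- kidneys at an adjusted p under 0.05 (C1qa and C1qc) and 0 rose, by the quasi-likelihood test of edgeR, adjusted by the Benjamini-Hochberg method over all genes tested. Of all 15816 genes, 7.28% were called lower and 4.74% higher by the same rule. At the threshold of the study's methods, a log2 fold change beyond 1 in size and an unadjusted p under 0.05, 3 of the 10 were lower (C1qa, C1qb and C1qc) and 1 was higher (Lyz2), against 4.10% of all genes lower and 3.50% higher. At an unadjusted p under 0.05 alone the counts were also 3 lower and 1 higher, against 14.3% of all genes lower and 14.0% higher. The 10 genes were chosen with earlier results of these data known. The 3 C1q genes lie side by side and varied together over the libraries, so they are not 3 independent calls. At an adjusted p under 0.05, DESeq2 called 3 of the 10 lower and 0 higher (9.13% and 6.92% of all genes), and limma-voom called 0 in either direction (7.28% lower and 4.41% higher). The median log2 fold change was -0.17 over the 10 genes, with 6 below 0 and 4 above, beside 0.02 over all genes tested. The groups did not overlap for 1 of the 10 genes, Lyz2, with Trpm2-/- kidneys above, and for 0 with Trpm2-/- kidneys below. Over all genes the share that did not overlap was 16.7% with Trpm2-/- above and 16.8% with Trpm2-/- below.

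**Figure D1:**
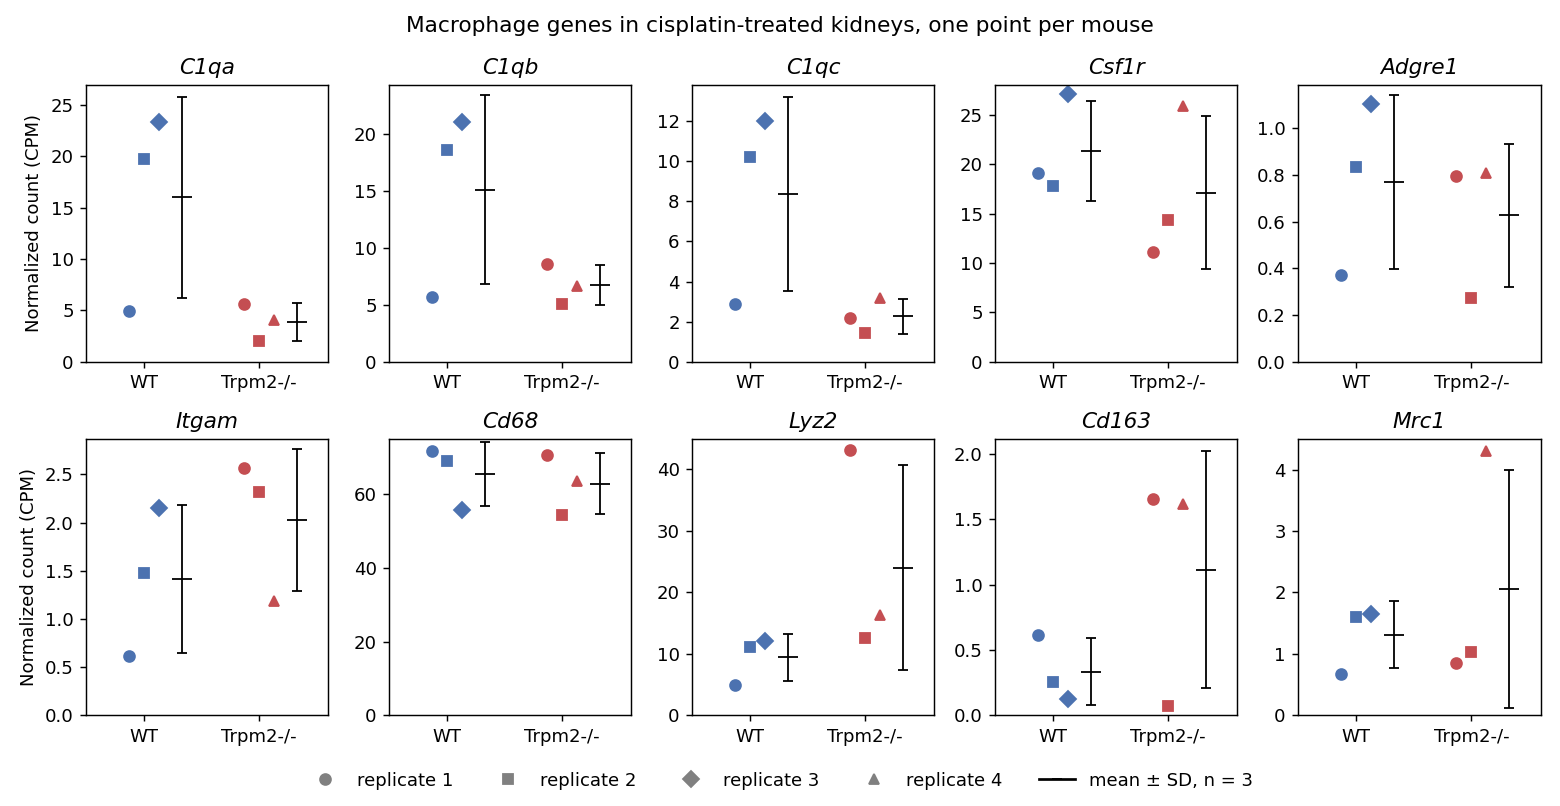
Level of each macrophage gene in each kidney library, in CPM on a linear axis from 0, with a point per mouse (symbols give the replicate number) and each group's mean ± SD (n = 3) beside the points. The lowest WT point of the C1q genes is WT mouse 1, which lies within the range of the Trpm2-/- points, while the other WT mice lie above all Trpm2-/- mice.

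The 3 chains of C1q had the lowest log2 fold changes of the 10 genes. Counts of C1qa were 80, 307 and 380 in WT mice 1, 2 and 3, and 92, 29 and 65 in Trpm2-/- mice 1, 2 and 4. On the CPM scale C1qa was at 4.93, 19.7 and 23.3 in WT and 5.63, 1.98 and 4.05 in Trpm2-/- kidneys. WT mice 2 and 3 were above every Trpm2-/- mouse, and WT mouse 1 was within the Trpm2-/- range, so the groups overlapped. The mean level of C1qa was 16.0 ± 9.74 CPM in WT and 3.89 ± 1.83 CPM in Trpm2-/- kidneys (SD, n = 3). C1qa fell by 2.03 on the log2 scale (standard error, SE, 0.543, 95% interval -3.25 to -0.81), or 4.09-fold, with an adjusted p = 0.0401 in edgeR.

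C1qc showed the same order of libraries within WT, with 2.90, 10.2 and 12.02 CPM, and had 2.20, 1.43 and 3.18 CPM in Trpm2-/- kidneys. Here WT mouse 1 lay below Trpm2-/- mouse 4 and above the other two Trpm2-/- mice. The mean of C1qc was 8.38 ± 4.83 CPM in WT and 2.27 ± 0.873 CPM in Trpm2-/- (SD, n = 3). C1qc fell by 1.88 on the log2 scale (SE 0.508, 95% interval -3.02 to -0.74), or 3.67-fold, with an adjusted p = 0.0421 in edgeR. C1qb was at 5.67, 18.6 and 21.04 CPM in WT and 8.57, 5.05 and 6.66 CPM in Trpm2-/- kidneys. Its WT mouse 1 again lay among the Trpm2-/- mice, while WT mice 2 and 3 were above them all. C1qb differed by -1.16 on the log2 scale (SE 0.427, 95% interval -2.11 to -0.20) and did not pass the test, with an adjusted p = 0.110 in edgeR.

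Both calls depended on which mice were included. The C1qa call was lost when any one mouse other than WT mouse 1 was left out (adjusted p 0.0668 to 0.151 in edgeR), and the C1qc call was lost without WT mouse 2 (0.136), WT mouse 3 (0.166), Trpm2-/- mouse 1 (0.117) or Trpm2-/- mouse 2 (0.0934). In the fits that lost the call the log2 fold change was -2.40 to -1.66 for C1qa and -1.85 to -1.53 for C1qc. Without WT mouse 1, all 3 chains fell, with log2 fold changes of -2.47 for C1qa, -1.55 for C1qb and -2.29 for C1qc and adjusted p of 0.00741, 0.0103 and 0.00842 in edgeR. With limma-voom in place of edgeR the log2 fold change was -1.85 for C1qa and -1.69 for C1qc, with an adjusted p of 0.114 and 0.108. With the genes of the mitochondrial genome, whose share of counts differed between the groups, taken out of the table, the adjusted p was 0.0421 for C1qa and 0.0434 for C1qc in edgeR. In whole kidney, fewer macrophages and less of an RNA per macrophage cannot be told apart.

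WT mouse 1 was the lowest of the WT mice in 7 of the 10 macrophage genes (70%), in all 3 C1q genes and in 13 of 16 other macrophage genes tested (81.2%), while it was the lowest in 38.9% of all genes tested. The summed level of the 10 genes was 111.6, 150.7 and 156.3 CPM in WT and 147.1, 93.5 and 127.8 CPM in Trpm2-/- mice, so it overlapped. The largest part of this sum in every library was Cd68, at 55.6 to 71.7 CPM in WT and 54.3 to 70.6 CPM in Trpm2-/- mice. Across all genes WT mouse 1 was the most distant of the WT mice, with a chi-square per degree of freedom of 17.9 and 18.7 to WT mice 2 and 3, beside 13.5 between those, and 32.1 to 36.7 among the Trpm2-/- mice.

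The C1q genes lie side by side on chromosome 4 and are transcribed from the minus strand. In the coordinates of the deposited table, which match the GRCm38 build, C1qb spans chr4:136880129-136886187, C1qc chr4:136889804-136893065 and C1qa chr4:136895917-136898803, each with 3 exons. The cluster covers 18675 bases, with 3616 bases between C1qb and C1qc and 2851 bases between C1qc and C1qa. Over the 6 libraries, log2 levels (CPM plus 0.5) of the 3 genes varied together, with a Pearson r of 0.973 for C1qa and C1qb, 0.969 for C1qa and C1qc and 0.944 for C1qb and C1qc. These are descriptions over 6 libraries that include the genotype difference. Lyz2, whose level lay on the opposite side of WT, is on chromosome 10 at chr10:117277331-117282321, minus strand, with 4 exons.

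The 250 bases before the RefSeq transcription start are shown for C1qb and C1qc, which moved together, and for Lyz2, which did not move with them. The sequences are from RefSeq on GRCm38.p6, at chr4:136886201-136886450, chr4:136892915-136893164 and chr10:117282273-117282522, all on the minus strand, and read 5′ to 3′. The RefSeq start differs from the end of the gene in the deposited table, so that 151 bases of the C1qc window and 49 bases of the Lyz2 window lie inside the table's gene, and 0 of the C1qb window. Capitals mark a match to AGGAAGT on either strand, which reads ACTTCCT where the match is on the other strand, the core of the motif that PU.1 (Spi1), a transcription factor of macrophages, shares with other ETS factors.
C1qb: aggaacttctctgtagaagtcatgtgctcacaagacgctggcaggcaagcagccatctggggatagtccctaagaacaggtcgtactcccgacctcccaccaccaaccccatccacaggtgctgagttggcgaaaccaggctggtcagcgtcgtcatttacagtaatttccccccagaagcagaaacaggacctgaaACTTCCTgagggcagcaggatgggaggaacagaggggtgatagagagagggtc
C1qc: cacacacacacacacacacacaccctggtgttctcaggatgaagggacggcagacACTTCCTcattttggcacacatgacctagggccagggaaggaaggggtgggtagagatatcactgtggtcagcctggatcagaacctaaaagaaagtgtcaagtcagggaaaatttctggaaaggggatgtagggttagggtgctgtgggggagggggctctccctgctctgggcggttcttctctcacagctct
Lyz2: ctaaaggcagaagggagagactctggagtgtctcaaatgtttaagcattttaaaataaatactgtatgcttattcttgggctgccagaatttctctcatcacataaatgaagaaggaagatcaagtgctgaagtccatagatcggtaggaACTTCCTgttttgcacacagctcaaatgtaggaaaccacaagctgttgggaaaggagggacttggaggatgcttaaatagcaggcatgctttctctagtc
Counted from the RefSeq start, the first base of the match is at -53 in C1qb, -195 in C1qc and -100 in Lyz2. C1qa and Adgre1 had no entry among the promoters used, and Csf1r was left out of the search by choice, so the genes searched are not the whole set. Of the 7 macrophage genes searched, 4 held these letters (also Mrc1, at -211) and 3 did not (Cd163, Itgam and Cd68). Of 32851 RefSeq promoters of this length, 7.70% held them. The motif was chosen with these sequences in view, so these shares do not test whether macrophage genes hold it more often. A match of letters is a description, not a site in use. Spi1 was at 1.73, 1.80 and 2.39 CPM in WT and 2.39, 1.02 and 2.86 CPM in Trpm2-/- kidneys, with a log2 fold change of 0.09 (adjusted p = 0.920 in edgeR).

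Lyz2 was the only one of the 10 genes with every Trpm2-/- mouse above every WT mouse. Its level was 4.996, 11.2 and 12.1 CPM in WT and 43.1, 12.6 and 16.4 CPM in Trpm2-/- kidneys. Trpm2-/- mouse 1 stood far above the rest, and Trpm2-/- mouse 2 exceeded the highest WT mouse by little. The mean was 9.42 ± 3.86 CPM in WT and 24.0 ± 16.6 CPM in Trpm2-/- (SD, n = 3). The log2 fold change of Lyz2 was 1.35 (SE 0.468, 95% interval 0.30 to 2.40) with an adjusted p = 0.0911 in edgeR, so the gene did not pass the test. Without Trpm2-/- mouse 1 it was 0.62 (adjusted p = 0.324), and without Trpm2-/- mouse 2 it was 1.66 (adjusted p = 0.0457). Its close paralogue Lyz1, a lysozyme of gut Paneth cells, had 1 count in WT mouse 3 and 0 in the other libraries, and 5.96% of the 75-base windows of Lyz2 also occur in Lyz1.

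Csf1r, the receptor for Csf1 and Il34, was at 19.1, 17.8 and 27.2 CPM in WT and 11.1, 14.4 and 25.9 CPM in Trpm2-/- kidneys. Trpm2-/- mouse 4 was close to the highest WT mouse and the other two were below all WT mice. For Csf1r the log2 fold change was -0.32 (SE 0.301, 95% interval -0.99 to 0.36, adjusted p = 0.536 in edgeR). The gene lies at chr18:61105572-61132149, plus strand, with 21 exons, and its end overlaps Hmgxb3 on the other strand, which had 276 to 474 counts per library. Strandedness of the counting was not given in the sources used here, so reads from the overlap cannot be assigned with certainty.

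Cd68 had the highest level per length of the 10 genes and differed little between mice. It was at 71.7, 69.1 and 55.6 CPM in WT and 70.6, 54.3 and 63.7 CPM in Trpm2-/- kidneys, so the groups overlapped over most of their range. Its log2 fold change was -0.06 (SE 0.151, adjusted p = 0.841 in edgeR), with a 95% interval of -0.40 to 0.28. Cd68 lies at chr11:69664213-69666153, minus strand, with 6 exons, and 782 bases separate it from Eif4a1 on the same strand, which had 6830 to 8418 counts per library.

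Adgre1, the F4/80 gene (chr17:57358691-57483527, plus strand, 22 exons), was near the detection limit. It had 6, 13 and 18 counts in WT and 13, 4 and 13 counts in Trpm2-/- kidneys, or 0.370, 0.835 and 1.10 CPM against 0.796, 0.273 and 0.810 CPM. The groups overlapped, with Trpm2-/- mouse 2 below every WT mouse and WT mouse 3 above every Trpm2-/- mouse. The log2 fold change of Adgre1 was -0.28 with a 95% interval of -1.58 to 1.02 (adjusted p = 0.795 in edgeR), an interval that includes a 2-fold fall and a 2-fold rise. Itgam (chr7:128062640-128118491, plus strand, 30 exons) had 10, 23 and 35 counts in WT and 42, 34 and 19 counts in Trpm2-/- kidneys, and these ranges overlapped too. The log2 fold change of Itgam was 0.51 (SE 0.503, 95% interval -0.61 to 1.64, adjusted p = 0.548 in edgeR). Its counts are uncertain, since 65.22% of the 75-base windows of Itgam also occur in the overlapping gene Gm49368, which was listed at 0 in all 6 libraries.

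The endocytic receptors were also low and differed widely among the Trpm2-/- mice. Cd163 (chr6:124304656-124330527, plus strand, 17 exons) had 10, 4 and 2 counts in WT and 27, 1 and 26 counts in Trpm2-/- kidneys. Trpm2-/- mice 1 and 4 were above all WT mice and Trpm2-/- mouse 2 was below them all. For Cd163 the log2 fold change was 1.73 (SE 0.897, 95% interval -0.28 to 3.74, adjusted p = 0.241 in edgeR). Mrc1 (chr2:14229392-14332057, plus strand, 30 exons) had 11, 25 and 27 counts in WT and 14, 15 and 69 counts in Trpm2-/- kidneys. Only Trpm2-/- mouse 4 stood above the WT mice. The log2 fold change of Mrc1 was 0.65 (SE 0.647, adjusted p = 0.557 in edgeR) and was -0.47 without Trpm2-/- mouse 4.

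**Figure D2:**
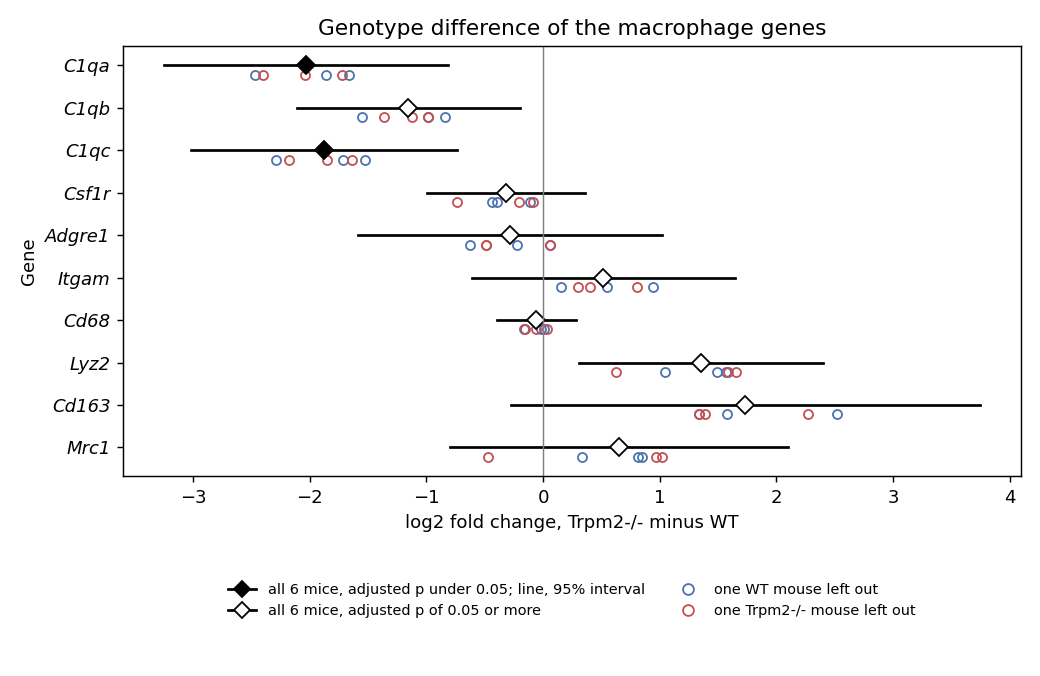
Fitted log2 fold change of each macrophage gene, Trpm2-/- minus WT, with its 95% interval as a line, filled where the adjusted p is under 0.05, and open circles for fits that omit a single mouse. The intervals of C1qa, C1qb and C1qc lie below 0 and that of Lyz2 above 0, and the other 6 cross 0.

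By FPKM, which allows levels of different genes to be compared, the mean over 6 libraries was 44.9 for Cd68, 11.2 for Lyz2, 8.80 for C1qb and 8.37 for C1qa. Csf1r followed at 3.46 and C1qc at 2.42 FPKM, and Itgam, Mrc1, Adgre1 and Cd163 were at 0.300, 0.233, 0.189 and 0.117 FPKM. Neighbours in this order had overlapping ranges over the libraries, except Cd68 and Lyz2 (37.9 to 50.0 against 3.33 to 28.8 FPKM) and C1qc and Itgam (0.651 to 5.43 against 0.108 to 0.451 FPKM). Cd68 stood at percentile 92.8 of the genes tested and Adgre1 at percentile 3.5.

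Whether the 10 genes moved by a common factor was examined with ratios of FPKM within each library. The ratio of C1qa to Adgre1 was 41.5, 73.5 and 65.7 in WT and 22.0, 22.6 and 15.6 in Trpm2-/- kidneys. All Trpm2-/- mice lay below all WT mice, with a difference of -1.57 in mean log2 ratio (two-sided exact permutation test, p = 0.1). The ratio of C1qc to Adgre1 was 13.1, 20.5 and 18.3 in WT and 4.64, 8.80 and 6.58 in Trpm2-/- (difference -1.40, exact p = 0.1). The ratio of Lyz2 to Adgre1 was 33.2, 32.9 and 26.9 in WT and 133, 114 and 49.8 in Trpm2-/- (difference 1.56, exact p = 0.1). With 3 mice against 3 an exact p cannot go below 0.1, and after Benjamini-Hochberg adjustment over the 9 ratios these were 0.3. The ratio of C1qb to Adgre1 overlapped between groups (difference -0.66, exact p = 0.2), as did those of Cd68 (0.26), Csf1r (-0.07), Itgam (0.94), Cd163 (1.40) and Mrc1 (0.67), with exact p of 0.4 to 1. Adgre1 had as few as 4 counts in a library, so these ratios are imprecise.

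Further ratios were chosen after the values were seen. To Laptm5, a lysosomal membrane gene of haematopoietic cells, C1qb was at 6.28, 6.21 and 6.12 in WT and 4.51, 4.03 and 4.97 in Trpm2-/- kidneys. All Trpm2-/- mice were lower than the WT mice. The SD of this log2 ratio in WT was 0.018, beside 0.065 for C1qc, 0.17 for C1qa and 0.35 for Lyz2 to Laptm5. What sets these ratios was not tested. The ratio of C1qa to Laptm5 was 5.71, 6.90 and 7.10 in WT and 3.10, 1.65 and 3.16 in Trpm2-/-, and that of C1qc to Laptm5 was 1.81, 1.93 and 1.97 in WT and 0.654, 0.644 and 1.33 in Trpm2-/-. The ratio of Lyz2 to Laptm5 was 4.57, 3.09 and 2.91 in WT and 18.8, 8.32 and 10.1 in Trpm2-/-. Set against Tyrobp and Fcer1g, which encode signalling adaptors of myeloid receptors, the differences in mean log2 ratio were -1.60 and -1.78 for C1qa, -0.70 and -0.88 for C1qb, -1.43 and -1.61 for C1qc, and 1.52 and 1.35 for Lyz2. In each of these 12 ratios the groups did not overlap, with the smallest exact p that the design allows, 0.1. The ratios share mice, numerators and reference genes and were picked with the values known, so they are not 12 independent results. Laptm5 itself was at 3.15, 10.4 and 11.96 CPM in WT and 6.61, 4.37 and 4.67 CPM in Trpm2-/- kidneys, with a log2 fold change of -0.70 (adjusted p = 0.326 in edgeR).

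**Figure D3:**
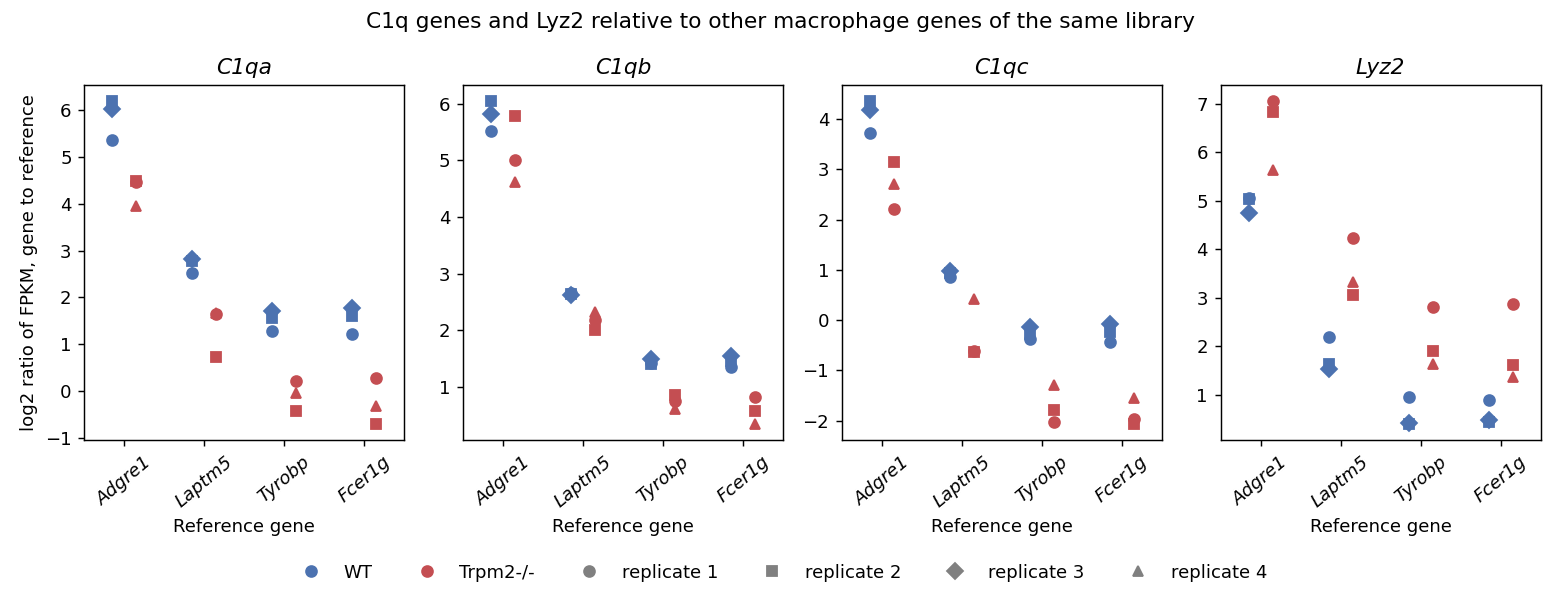
Log2 ratio of the FPKM of C1qa, C1qb, C1qc and Lyz2 to each reference gene, named on the horizontal axis, with 1 point per mouse, coloured by genotype. Against Laptm5, Tyrobp and Fcer1g, chosen after the values were seen, every Trpm2-/- mouse lies below every WT mouse for the C1q genes and above for Lyz2.

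Relative to C1qb, the other chains were lower in every Trpm2-/- mouse than in any WT mouse. The ratio of C1qa to C1qb was 0.910, 1.11 and 1.16 in WT and 0.687, 0.410 and 0.636 in Trpm2-/- kidneys (difference in mean log2 ratio -0.90, exact permutation p = 0.1). The ratio of C1qc to C1qb was 0.288, 0.310 and 0.322 in WT and 0.145, 0.160 and 0.269 in Trpm2-/- (difference -0.74, exact permutation p = 0.1). Here too 0.1 is the smallest p possible and the ratios were chosen after the values were seen.

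The proteins with which the macrophage genes work were followed in a list of 7 genes, of which all 7 were tested and 1 rose in edgeR. Il34, which tubular cells secrete as a ligand of Csf1r, was at 79.3, 107 and 94.97 CPM in WT and 180, 171 and 109 CPM in Trpm2-/- kidneys. All Trpm2-/- mice were above the WT mice, mouse 4 by little. Il34 rose by 0.71 on the log2 scale (SE 0.201) with an adjusted p = 0.0499 in edgeR, just under the threshold. This call was lost when any one mouse other than Trpm2-/- mouse 4 was left out (adjusted p 0.0979 to 0.162) and in limma-voom (0.0571). Csf1, the other ligand, was at 151, 87.1 and 125 CPM in WT and 76.6, 81.9 and 198 CPM in Trpm2-/- kidneys, which overlapped (log2 fold change -0.03, adjusted p = 0.971 in edgeR).

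C1ra and C1s1, the proteases that join C1q in the C1 complex, had log2 fold changes of 0.16 and 0.21 (adjusted p = 0.537 and 0.718 in edgeR). Their inhibitor gene Serping1 was at 41.0, 42.0 and 29.4 CPM in WT and 11.3, 16.5 and 45.3 CPM in Trpm2-/- kidneys. Trpm2-/- mice 1 and 2 were below and mouse 4 above all WT mice, and the log2 fold change was -0.62 (adjusted p = 0.380). Without Trpm2-/- mouse 4, Serping1 fell by 1.43 on the log2 scale (adjusted p = 0.0075 in edgeR). Itgb2, the beta chain that pairs with Itgam, and Hp, the haptoglobin gene, had log2 fold changes of 0.72 and -0.27 (adjusted p = 0.343 and 0.796 in edgeR).

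A list of 20 other macrophage genes was written by hand, and 16 were tested (Ms4a7, Trem2, Vsig4 and Cd84 had too few counts). Of these, 0 rose and 0 fell in edgeR at an adjusted p under 0.05, 1 was higher and 0 lower at an unadjusted p under 0.05, and DESeq2 called 1 higher and 0 lower. limma-voom called 0 in either direction. The median log2 fold change was -0.12, with 7 genes above 0 and 9 below. The gene called by DESeq2 was Cd14, the co-receptor for lipopolysaccharide, at 43.9, 47.0 and 33.4 CPM in WT and 103, 70.0 and 46.3 CPM in Trpm2-/- kidneys (log2 fold change 0.82, adjusted p = 0.0718 in edgeR and 0.0188 in DESeq2). Trpm2-/- mouse 4 overlapped WT mouse 2. Cx3cr1, the fractalkine receptor of resident macrophages and monocytes, had a log2 fold change of -1.03 (adjusted p = 0.249), and Sirpa, an inhibitory receptor, of 0.28 (adjusted p = 0.210 in edgeR). Laptm5 was lower without WT mouse 1 (adjusted p = 0.0425), which was then the 1 gene of the list that fell. The summed level of the list was 170.3, 226.0 and 193.6 CPM in WT and 277.2, 185.8 and 219.2 CPM in Trpm2-/- mice.

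Genes of scavenging and of macrophage states were read in 3 further lists. Of 10 scavenger and resident macrophage genes 4 were tested and 1 fell. This was Cbr2, a carbonyl reductase, which is also expressed outside macrophages, at 10.2, 7.07 and 7.18 CPM in WT and 1.59, 3.82 and 3.55 CPM in Trpm2-/- kidneys. All Trpm2-/- mice were below all WT mice, and the log2 fold change of Cbr2 was -1.45 (SE 0.351, adjusted p = 0.0287 in edgeR), a call that was lost without WT mouse 1 (0.0819), 2 (0.0705) or 3 (0.0740). Msr1, a scavenger receptor, had 1.53 (adjusted p = 0.0938), Stab1 -0.22 (0.642) and Folr2 -0.15 (0.940).

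Of 10 genes of alternative activation 6 were tested, 1 rose and 1 fell. Tgfb1, a cytokine many cells make, was at 24.1, 24.5 and 28.2 CPM in WT and 41.3, 41.6 and 37.2 CPM in Trpm2-/- kidneys, with no overlap. It rose by 0.65 on the log2 scale (SE 0.131, adjusted p = 0.0142 in edgeR), a call lost without WT mouse 1 (0.0526) or 2 (0.0842). Gas6, a bridge between dying cells and their phagocyte receptors, was far above the level of each of the 10 macrophage genes. The cells that made it were not tested. Its level was 569, 607 and 595 CPM in WT and 364, 328 and 429 CPM in Trpm2-/- kidneys, again with no overlap. Gas6 fell by 0.66 on the log2 scale (SE 0.147, adjusted p = 0.0206 in edgeR), a call lost without Trpm2-/- mouse 1 (0.0515), WT mouse 2 (0.0925) or WT mouse 3 (0.0956). Mgl2, a lectin, had -2.13 (adjusted p = 0.0954) and Chil3, a chitinase-like protein, 1.30 (adjusted p = 0.0985 in edgeR). Of 10 genes of classical activation 5 were tested, and 0 passed in either direction in edgeR, DESeq2 or limma-voom, with 1 higher and 0 lower at an unadjusted p under 0.05. Ccl2, a monocyte-attracting chemokine, had the smallest p of these, with a log2 fold change of 0.69 (adjusted p = 0.175 in edgeR), beside 0.74 for Cd80, -0.62 for Cd86 and -0.09 for Cxcl10.

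Markers of other cells were read in the same libraries. Of 6 genes of all leukocytes, each tested, 0 passed in edgeR, DESeq2 or limma-voom, with 1 higher and 0 lower at an unadjusted p under 0.05. Their summed level was 17.3 to 35.2 CPM in WT and 17.8 to 34.3 CPM in Trpm2-/- mice. Ptprc, the CD45 gene, was at 1.79, 3.08 and 3.37 CPM in WT and 5.08, 3.69 and 5.23 CPM in Trpm2-/- kidneys. Every Trpm2-/- mouse was above the WT mice, and the log2 fold change of Ptprc was 0.76 (adjusted p = 0.164 in edgeR). Lcp1, Cd53 and Cd52 had log2 fold changes of -0.38, 0.72 and -0.45. Relative to Ptprc in place of Adgre1, the difference in mean log2 ratio was -2.68 for C1qa, -1.78 for C1qb and -2.52 for C1qc. It was -1.18 for Csf1r and -0.86 for Cd68 (exact permutation p = 0.1 for each of these genes, the smallest possible, not adjusted). The groups overlapped for Lyz2 (0.44, exact p = 0.6), Itgam (-0.18, exact p = 0.8), Mrc1 (-0.44, exact p = 0.6) and Cd163 (0.28). The higher Ptprc of every Trpm2-/- mouse lowers each of these ratios.

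Of 8 monocyte genes 6 were tested, with a median log2 fold change of 0.91, and 0 passed in edgeR in either direction, with 1 higher and 0 lower at an unadjusted p under 0.05. DESeq2 called 1 higher and 0 lower and limma-voom called 0. F13a1, a coagulation factor chain of monocytes and macrophages, was at 0.678, 0.193 and 0.368 CPM in WT and 3.67, 1.71 and 0.436 CPM in Trpm2-/- kidneys. Trpm2-/- mice 1 and 2 were above the WT mice and mouse 4 was among them (log2 fold change 2.21, adjusted p = 0.0889 in edgeR). Vcan, Ccr2 and Ms4a4c had log2 fold changes of 1.27, 1.01 and 0.81 (adjusted p = 0.209, 0.310 and 0.459 in edgeR). The summed level of the 8 genes was 47.1 to 66.1 CPM in WT and 40.8 to 85.6 CPM in Trpm2-/- mice. Most of this sum was Plac8, named after its values were seen, at 42.5 to 61.0 CPM in WT and 35.0 to 65.4 CPM in Trpm2-/- (log2 fold change -0.08, adjusted p = 0.865 in edgeR).

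Neutrophils also express Lyz2 and Itgam. Neutrophil genes summed to 3.15, 13.5 and 8.65 CPM in WT and 10.2, 6.55 and 12.8 CPM in Trpm2-/- mice. Of 10 such genes 5 were tested and 0 passed in edgeR (1 higher and 0 lower at an unadjusted p under 0.05, and 1 higher and 0 lower in DESeq2). Csf3r, the receptor for granulocyte colony-stimulating factor, was at 0.308, 1.41 and 1.17 CPM in WT and 3.18, 2.18 and 4.79 CPM in Trpm2-/- kidneys, with all Trpm2-/- mice above (log2 fold change 1.81, adjusted p = 0.0549 in edgeR). Cxcr2, Retnlg and S100a9 had log2 fold changes of 0.76, -0.93 and -0.47, and Mpo was at 0 in all 6 libraries. The part of neutrophils in the level of Lyz2 was not tested.

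Of 12 lymphocyte genes 1 was tested, Cd79a (log2 fold change 0.41, adjusted p = 0.611), their summed level was 1.96 to 4.92 CPM over all 6 mice, and Ncr1 was at 0 throughout. Of 10 dendritic and mast cell genes 4 were tested and 0 passed in edgeR, with 1 higher and 0 lower at an unadjusted p under 0.05. DESeq2 called 1 higher and 0 lower. This was Kit, a receptor also found on other kidney cells, with a log2 fold change of 0.70 (adjusted p = 0.0523 in edgeR), and Zbtb46, Itgax and Clec9a had 0.42, -0.53 and 0.21. The list's sum was 20.97 to 27.5 CPM in WT and 28.5 to 41.3 CPM in Trpm2-/- mice. Most of this sum was Kit, at 14.1 to 14.4 CPM in WT and 19.5 to 30.6 CPM in Trpm2-/- mice, so it is not a level of dendritic and mast cells. Cpa3, Mcpt4 and Fcer1a were at 0 in all.

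Markers of the kidney's own cells gave the most calls of these lists. Of 11 kidney cell genes, each tested, 5 fell and 0 rose in edgeR, against 7.28% of all genes lower and 4.74% higher. At an unadjusted p under 0.05, 5 were lower and 1 was higher, against 14.3% and 14.0% of all genes. The log2 fold change was below 0 for 9 of the genes and above 0 for 2. The list's sum was 3777, 3477 and 4969 CPM in WT and 1236, 1344 and 2169 CPM in Trpm2-/- mice. Slc34a1, the phosphate transporter of proximal tubules, fell from 1011 ± 244 CPM in WT to 152 ± 92.4 CPM in Trpm2-/- (SD, n = 3), by 2.73 on the log2 scale (adjusted p = 0.00391 in edgeR). Slc5a2, Aqp2 and Lrp2 had log2 fold changes of -1.24, -1.02 and -0.76 (adjusted p = 0.00402, 0.00602 and 0.0283), although Lrp2 lost its call without WT mouse 2 (0.0923), WT mouse 3 (0.121) or Trpm2-/- mouse 4 (0.0562). CPM are relative to library sizes scaled by TMM, so the levels of a macrophage gene and of the tubular genes may not be independent. The part of the tubular genes in the levels of the macrophage genes was not tested.

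**Figure D4:**
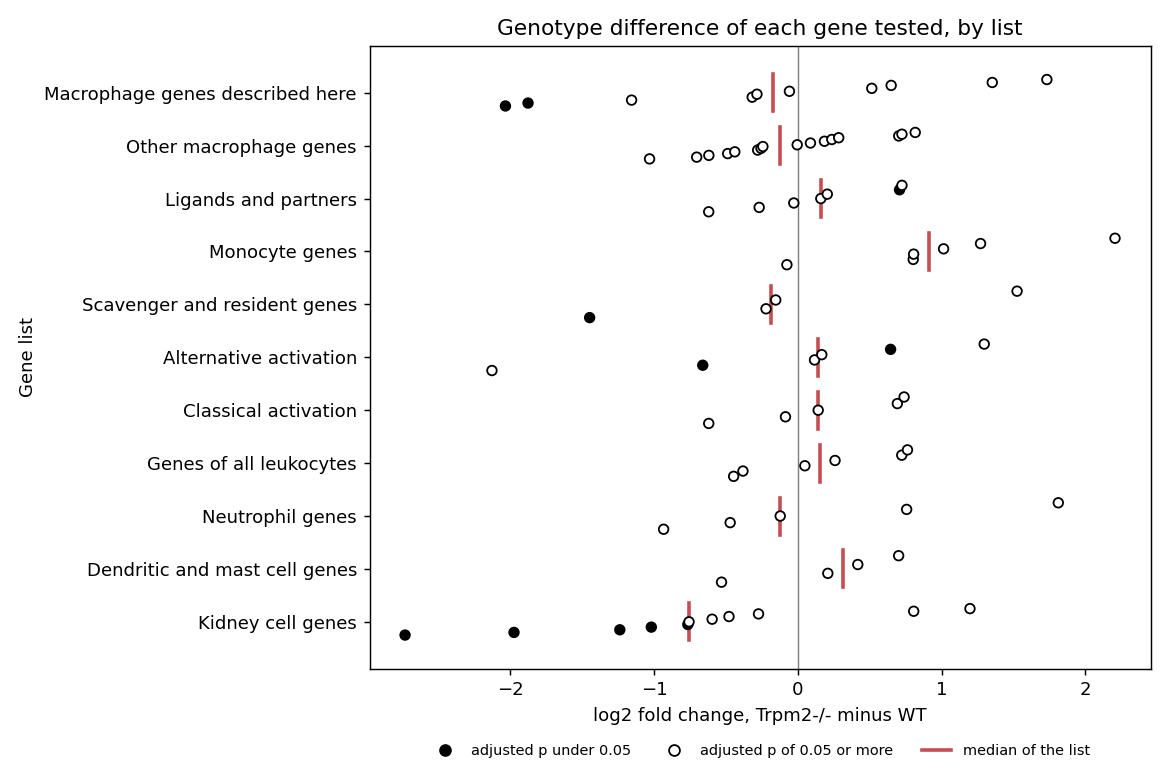
Fitted log2 fold change, Trpm2-/- minus WT, of every tested gene of each list (except the lymphocyte list, with 1 gene tested), with filled points at an adjusted p under 0.05 and a line at each list's median. The macrophage genes spread from -2.03 to 1.73 around a median of -0.17, and the kidney cell genes have the lowest median.

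Outside the 10 genes, the profile over the 6 libraries most like their mean log2 level was that of Zfp780b (Pearson r 0.981), followed by Inpp5d (0.964), Atg3 (0.955), Klf2 (0.953), Tmem29 (0.950), Ncl (0.948), Cwh43 (0.947) and Inhbb (0.942), among 10812 genes of at least 5 CPM on average. For the mean of the C1q genes, a choice made after their values were seen, Igfbp3 (0.995), Mcoln3 (0.984), Htatsf1 (0.984) and Ckmt1 (0.981) came first. With 6 libraries and this many candidates, values of this size are a description only. Among pairs of the 10 genes, those within the C1q genes were the highest, followed by Adgre1 with each C1q gene at r of 0.741 to 0.807, while Itgam and Lyz2 had 0.737, and Cd68 and Itgam had the lowest at -0.506.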

How the data were processed

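The deposited table holds, for each gene and library, a whole-number read count and an FPKM value, both made by the authors from Illumina libraries of Trizol-extracted kidney RNA. The submitters' processing notes name HISAT2, StringTie and mm9, with no versions used here. The gene positions in the table nevertheless match GRCm38, since 98.33% of the 54409 genes found in GENCODE M21 have the same start and end. Strandedness and alignment settings were not given in the sources used here. The deposited FPKM values divide counts by gene length and depth, so they were used for levels, for ratios between genes with their exact permutation tests, and for a pair of limma alternatives, and all other tests used the deposited counts.

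The count test ran under R 4.3.3 and edgeR 4.0.16 (filterByExpr defaults, TMM, glmQLFit, glmQLFTest, genotype only, all 6 libraries), with Benjamini-Hochberg adjustment over 15816 genes and a threshold of 0.05. Standard errors are the log2 fold change over the square root of F. Alternatives used DESeq2 1.42.0, limma 3.58.1 (voom, and log2 of FPKM plus 1 or 0.1), other scalings, no filter, a replicate block and each library left out. Scripts were tested on simulated data. Replicates differed by more than sampling noise in every pair, so none was merged. Promoters were from RefSeq tables for GRCm38.p6.

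The macrophage genes and all lists were chosen with earlier results of these data known. Genes named are the 10 macrophage genes, the 7 ligands and partners, up to 4 genes of smallest p in each other list, Lyz1, Ptprc, Trpm2 and the 8 genes most like the mean of the 10, Gm and Rik models excepted. Spi1, Laptm5, Cx3cr1, Tyrobp, Fcer1g, genes listed at 0 and genes like the C1q mean were named after their values were seen.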

Additional observations from a re-analysis of the deposited data

How the results depend on the processing

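With 1 mouse left out, the number of macrophage genes called at an adjusted p under 0.05 ranged from 0 to 3 lower, beside 2 reported, and from 0 to 1 higher, beside 0. It was 0 lower with limma-voom, with limma on log2(FPKM + 1) and on log2(FPKM + 0.1), and with the replicate block, and 1 higher with no filter on low counts. Of all 15816 genes, the first 3 of these settings called 1152, 1026 and 1027 lower and the replicate block 661. With no filter 1262 of 28884 genes were called higher. At the study's threshold the number higher was 2 with no filter and 0 to 2 with a mouse left out, beside 1, and the number lower was 1 with the replicate block, beside 3. C1qb also missed the fold change of that threshold in limma-voom (-0.96), in limma on log2(FPKM + 1) (-0.87) and on log2(FPKM + 0.1) (-0.96). It missed it too without WT mouse 2 (-0.98), WT mouse 3 (-0.84) or Trpm2-/- mouse 2 (-0.99). Of the other macrophage genes, 1 was higher with no filter, in DESeq2 and with the replicate block, and 0 to 1 were higher and 0 to 1 lower with a mouse left out, beside 0 each. The replicate block draws its genotype difference from fewer mice, as given below. The cause of these shifts was not tested.

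Genotypes shared replicate numbers 1 and 2 only, for different mice, and deviations from the group means of same-numbered mice correlated at 0.096 and -0.0027, so the numbers were treated as names. With the replicate block, WT mouse 3 and Trpm2-/- mouse 4 each had a block of their own. The genotype difference in that fit therefore came from mice 1 and 2 of each genotype only. There the log2 fold change was -1.50 for C1qa (adjusted p = 0.246) and -1.61 for C1qc (adjusted p = 0.125 in edgeR). The block fit called 341 genes higher and 661 lower, beside 750 and 1152. Over all genes the calls were 1262 higher and 1692 lower with no filter, and 160 to 819 higher and 470 to 1240 lower with a mouse left out.

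Signs turned for genes that did not pass the test. With the replicate block Mrc1 was at -0.19 and C1s1 at -0.32, and Csf1 was at 0.022 with upper-quartile scaling. With each mouse left out in turn, log2 fold changes ranged from -0.62 to 0.062 for Adgre1, -0.17 to 0.035 for Cd68, -0.47 to 1.02 for Mrc1, -0.60 to 0.21 for Csf1, -0.23 to 0.39 for C1s1, -0.78 to 0.34 for Hp, -0.024 to 1.61 for Trpm2, -1.70 to 0.43 for Folr2, -0.165 to 0.058 for Cxcl10, -0.62 to 0.65 for Clec9a and -1.47 to 0.027 for Cd52. Cd163 and Cd86 had no value without mitochondrial genome genes, where they missed the filter. Adgre1, Cd163, Itgam and Mrc1 had under 100 counts in every library, and the part of depth in their intervals was not tested.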
